A study of Mus musculus with 12 samples.

Results

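Mouse embryonic stem cells labelled as a Bod1l knockout were compared with wild-type cells, both without etoposide, across every gene with measurable RNA. Of the 12 libraries in the series, 6 entered the comparison: 3 labelled as wild type with no treatment, and 3 labelled as Bod1L KO with tamoxifen. The other 6, in which the same groups had received etoposide, a topoisomerase II poison that causes double-strand DNA breaks, served as separate libraries in which to look at the same genes again. Of 41079 gene IDs in the tables, the 13906 with a mean of at least 1 TPM (a transcript unit in which read coverage is divided by gene length and every library sums to the same total) over the 6 untreated libraries were tested. Tamoxifen was named for the knockout libraries and not for the wild-type ones, so genotype and tamoxifen cannot be told apart in any value below. The labels describe no Cre recombinase, no deleted exon, no clone and no culture medium, and call the replicates biological without describing separate cultures. P values therefore measure the spread between these libraries.

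BOD1L is a subunit of the SETD1A complex, which places methyl groups on lysine 4 of histone H3 near the starts of active genes. The title of the series names the complex, the expression of DNA damage repair genes and a restraint on H3K4 trimethylation. SETD1A and SETD1B each work with shared core proteins (WDR5, ASH2L, RBBP5, DPY30), and the related MLL enzymes use the same core. The comparison asks which RNAs change when the BOD1L subunit is reduced and no drug damage is added. Levels are given as TPM (mean ± SD, n = 3 libraries a group), and differences as knockout minus wild type on the log2(TPM + 1) scale ± SE, on which changes of rare RNAs come out too small.

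Aligned depth ran from 6.64 to 7.30 gigabases in wild type and from 5.23 to 6.51 in the knockout. Within each group the correlation between libraries, taken over genes rather than over independent units, was 0.994 to 0.995. The embryonic stem cell markers Pou5f1, Sox2, Nanog, Zfp42, Esrrb and Sall4 summed to 3992 to 4041 TPM in wild type and 3899 to 4018 in the knockout. Of 13 feeder fibroblast markers, 7 (Col3a1, S100a4, Dcn, Lum, Postn, Acta2, Prrx1) had a mean below 0.1 TPM, and the summed level of 1123 to 1201 TPM in wild type and 1065 to 1090 in the knockout came almost wholly from Fn1 and Vim. Extraembryonic endoderm markers summed to 3.69 to 4.46 TPM in wild type and 6.56 to 7.63 in the knockout. Neuroectoderm markers summed to 140.0 to 148.5 and 138.6 to 149.6, and trophectoderm markers to 90.3 to 95.4 and 79.1 to 83.2. Of the trophectoderm sum, Tfap2c held 45.6 to 49.2 TPM in wild type and 31.7 to 33.6 in the knockout. Eif2s3y, Ddx3y and Uty of the Y chromosome were above 1 TPM on average, and Xist, the RNA that silences an X chromosome, lay between 0.153 and 0.469 TPM in all 6 libraries.

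The 3 wild-type libraries held 48.5, 48.8 and 50.6 TPM of Bod1l, and the 3 knockout libraries 12.0, 11.2 and 11.5. The groups lay far apart, and the knockout mean was 23.5% of the wild-type mean (difference −2.00 ± 0.05, limma adjusted p = 8.00e-07). The gene spans chromosome 5 from 41944881 to 42001695 on the minus strand (GRCm39), and the tables give a single value for it, so the part of the gene that the remaining RNA comes from was not analysed here. Setd1a, the catalytic partner, was at 99.6 ± 1.01 TPM in wild type and 99.1 ± 3.301 in the knockout and did not pass the test. Of 22 subunits of the SETD1 and MLL complexes, 3 were higher, 6 lower and 13 did not pass, with a median difference of 0.01. Besides Bod1l the larger differences were in Pagr1a, a partner of MLL3 and MLL4, which fell from 73.9 ± 3.58 to 52.8 ± 2.83 TPM, and in Kmt2a, which encodes MLL1 and rose from 42.5 ± 0.74 to 50.4 ± 2.75. Among 15 H3K4 demethylases and readers, 3 were lower and none higher, and Kdm5b, an eraser of H3K4 trimethylation that stem cells express at a high level, fell from 222.3 ± 3.84 to 178.9 ± 4.91 TPM.

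Differences were widespread. The test was passed by 6544 of 13906 genes (47.1%), with 3666 higher in the knockout (26.4%) and 2878 lower (20.7%), and 7601 genes had an unadjusted p under 0.05. In 7999 genes (57.5%) the libraries of the groups did not overlap. Most of these differences were small. Here and below, cutoffs of 1.5-fold and 2-fold are taken on TPM + 1. At 1.5-fold or more, 569 genes were higher (4.09%) and 753 lower (5.41%), and at 2-fold or more 119 were higher (0.856%) and 201 lower (1.45%). With 0.1 in place of 1 added to the TPM, 836 were higher and 891 lower by 1.5-fold or more. The 569 became 236 on the FPKM scale and 268 among genes of mean TPM 5 or more. These changes bear on each share of 1.5-fold higher genes below. The balance of directions also turned with the scale: 56.0% of calls were higher here, 47.9% with FPKM and 47.2% under median-of-ratios scaling. Counts in gene lists are to be read against the 26.4% higher and 20.7% lower of all genes tested. The median difference over all genes tested was 0.04. The direction of the larger changes followed the abundance of the gene: among genes of mean TPM 1 to 5, 301 were higher and 220 lower by 1.5-fold or more, whereas among those of 50 to 200 TPM 35 were higher and 80 lower. The median SE was 0.136 for genes of 1 to 5 TPM, 0.067 for 5 to 50 and 0.036 above 50, so a difference of a given size was called less readily in rare RNAs. Chromosomes were alike, with median differences from 0.01 on X to 0.07 on chromosome 16 outside the Y chromosome, of which 7 genes were tested.

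**Figure D1:**
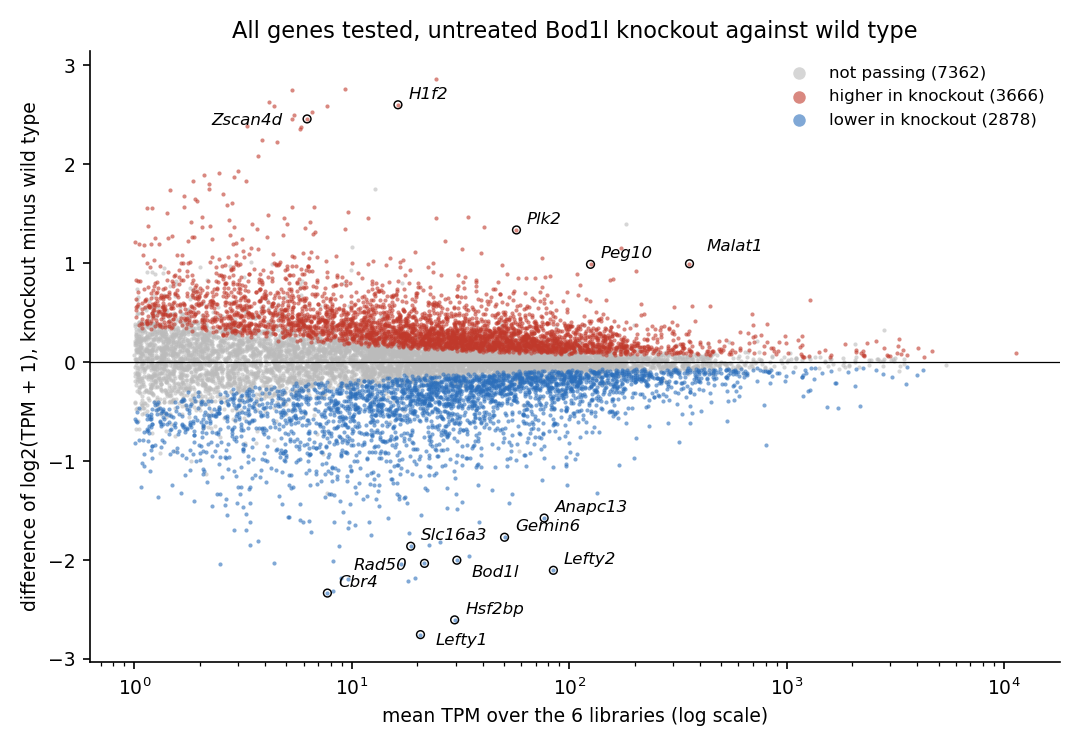
Each point is a gene tested, with its mean TPM over the 6 untreated libraries on a log axis and the difference of log2(TPM + 1), knockout minus wild type, on the y axis; red and blue points passed the test (3666 higher, 2878 lower). The strongest falls reach genes near 100 TPM such as Anapc13 and Lefty2, while the strongest rises are in rarer RNAs such as Tcstv2b and Zscan4d.

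The genes that fell furthest have unrelated known functions. Lefty1, a secreted inhibitor of Nodal signalling on chromosome 1 (180762587 to 180765966), read 36.9, 36.3 and 37.2 TPM in wild type and 4.25, 5.00 and 4.57 in the knockout, a 7.98-fold lower mean. Hsf2bp, which acts with BRCA2 in meiosis, read 48.1, 59.95 and 47.2 TPM against 7.39, 6.40 and 9.30. Cbr4, a reductase of mitochondrial fatty acid synthesis, read 13.2, 12.8 and 14.6 TPM against 2.13, 1.96 and 1.58. In each of these genes the knockout libraries lay far below the lowest wild-type library. Alg8, a glucosyltransferase of N-glycan assembly, read 14.03, 15.75 and 16.04 TPM against 2.61, 2.32 and 2.82. Mmachc, which processes vitamin B12, read 55.5, 56.1 and 54.5 TPM against 13.9, 13.1 and 13.5. Tfb1m, a methyltransferase of mitochondrial ribosomal RNA, read 28.1, 28.1 and 26.6 TPM against 6.48, 5.46 and 6.00. Groups without overlap were part of the rule by which the highest and lowest genes were picked, so their separation is not a separate result. Ercc6l2, a SNF2-family helicase, fell from 30.5 ± 2.17 to 5.81 ± 0.59 TPM, Gatb, a subunit of the mitochondrial glutamyl-tRNA amidotransferase, from 16.3 ± 0.87 to 2.79 ± 0.25, and Det1, an adaptor of a ubiquitin ligase, from 13.7 ± 0.47 to 2.71 ± 0.76. Ndufa4l2, a hypoxia-induced mitochondrial protein, read 3.07, 5.09 and 5.57 TPM in wild type and 0.68, 0.38 and 0 in the knockout, where it was near the lower limit of the tables.

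Among genes of mean TPM 50 or more, several that fell furthest encode parts of basic cell machinery. Gemin6, a subunit of the SMN complex that builds spliceosomal RNA-protein particles, read 78.9, 78.4 and 78.0 TPM in wild type and 21.3, 25.4 and 20.4 in the knockout. Anapc13, a subunit of the anaphase-promoting complex, read 116.4, 118.3 and 111.1 TPM against 36.6, 35.3 and 42.5. Orc5, a subunit of the origin recognition complex, read 103.0, 107.8 and 103.9 TPM against 46.8, 42.6 and 47.0. In all 3 genes the lowest wild-type library lay above the highest knockout library by many times the spread within a group. Psmg2, a proteasome assembly chaperone, fell from 77.3 ± 1.496 to 28.4 ± 2.15 TPM, Iars2, the mitochondrial isoleucyl-tRNA synthetase, from 78.7 ± 2.13 to 30.7 ± 1.39, Cnpy2 from 137.5 ± 3.47 to 57.8 ± 3.90, and the non-coding RNA Platr14 from 193.0 ± 5.57 to 76.6 ± 4.69.

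The genes that rose furthest were nearly all members of multicopy families transcribed in the 2-cell embryo and in rare 2-cell-like cells of stem cell cultures. Tcstv2b read 4.49, 6.36 and 4.72 TPM in wild type and 46.6, 42.7 and 41.9 in the knockout, an 8.43-fold higher mean. Zscan4d, a zinc finger gene that marks that state, read 1.72, 0.90 and 1.10 TPM against 12.6, 10.4 and 10.7. Since such copies are nearly identical in sequence, reads could be split between them by the authors' counting, and the value of a single copy is uncertain. H1f2, which encodes a linker histone and is not part of those families, read 4.36, 4.08 and 3.31 TPM against 27.1, 29.7 and 29.3. Among abundant genes Plk2, a kinase induced by p53, read 32.8, 30.4 and 33.0 TPM against 82.9, 83.7 and 80.5. Peg10, an imprinted gene derived from a retrotransposon, read 85.3, 83.0 and 82.7 TPM against 170.3, 169.2 and 161.4. The rule that picked these genes required groups without overlap. For Plk2 and Peg10 the rise was far larger than the spread. Gaa, the lysosomal alpha-glucosidase, rose from 76.5 ± 6.12 to 141.9 ± 1.77 TPM, and Ddit4, an inhibitor of mTORC1, from 36.1 ± 3.15 to 67.5 ± 3.71.

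A further 3 abundant entries rose with a wide spread, and they are given by library. Lars2, the mitochondrial leucyl-tRNA synthetase, read 78.8, 130.1 and 112.9 TPM in wild type and 262.6, 270.8 and 182.7 in the knockout. Mir6236 read 37.0, 58.1 and 49.6 TPM against 102.7, 124.9 and 77.0, and the nuclear RNA Malat1 218.3, 222.1 and 276.4 against 536.9, 458.5 and 432.7. In all 3 the same libraries were lowest in their group, wild-type replicate 1 and knockout replicate 3. The part that RNA quality has in these values was not tested.

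**Figure D2:**
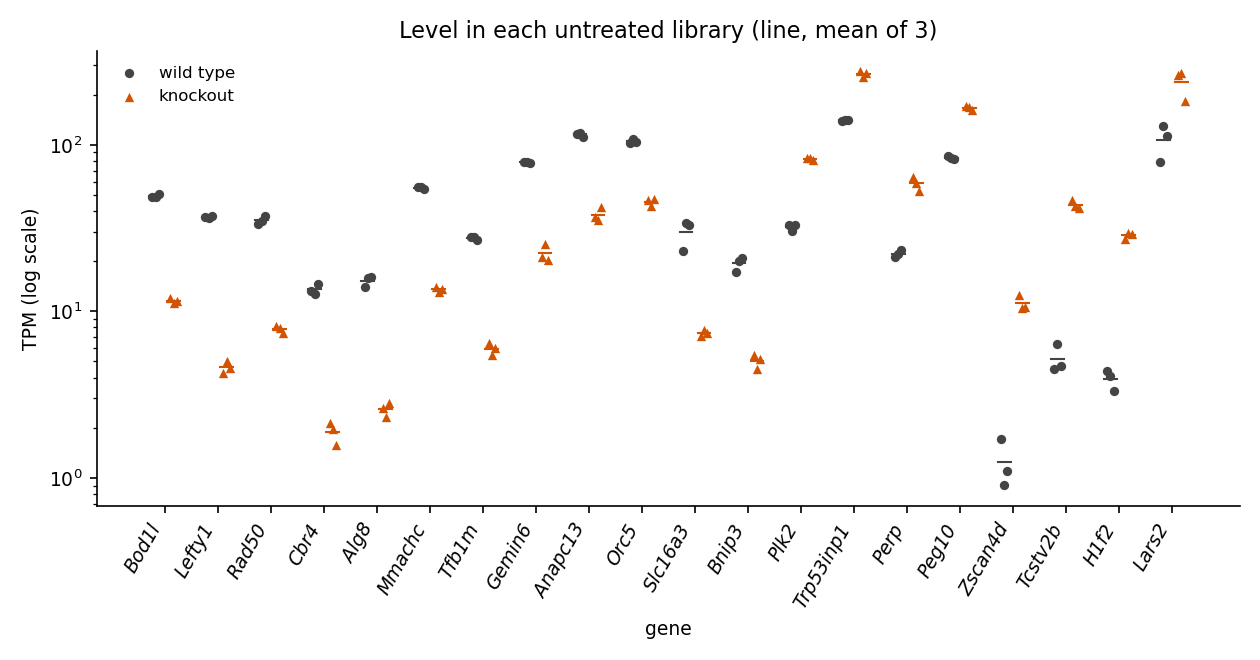
TPM in each of the 6 untreated libraries on a log axis for genes that fell (left) and rose (right); circles are wild type, triangles knockout, and short lines the means of 3 libraries. No gene drawn has overlapping groups, which the rule for picking the highest and lowest genes required. Lars2 ran from 78.8 to 130.1 TPM in wild type and from 182.7 to 270.8 in the knockout.

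Promoter sequence differed between the genes that fell and those that rose by 1.5-fold or more. Promoters were taken from RefSeq (GRCm38.p6), as 250 bases before and 50 after each gene's start, and matched by symbol; 8228 of the 13906 genes tested had a single promoter there. The letters CCGGAAG, the core bound by ETS family factors, were present on either strand in 9.12% of all 22862 promoters and in 19.3% of those of tested genes. They were found in 121 of 462 genes lower by 1.5-fold or more (26.2%) and in 21 of 288 higher by as much (7.29%). The letters TATAAA gave the opposite picture, with 14.8% of all promoters, 7.12% of tested ones, 5.41% of the fallen and 15.3% of the risen. GGGCGG, the box of SP family factors, was in 65.2% of tested promoters, 63.6% of the fallen and 51.0% of the risen. Of 11 motifs searched, these shares are a description of letters in a window and no test was run on them. Promoters poor in CG pairs held a larger share of risen genes: among those with an observed-to-expected ratio of CG under 0.25, 12.1% of 620 genes rose and 4.52% fell by 1.5-fold or more, against 1.99% and 5.54% of 3322 genes at 0.75 to 1. The former genes were also rarer, with a median of 4.24 TPM against 33.3.

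The 250 bases before the start of 3 fallen genes that hold the ETS core and of a risen gene with a TATA element are printed to show these elements, 5′ to 3′ on the strand of the gene, with the matching letters in capitals. CTTCCGG is the ETS core read from the other strand, and in Mcm8, a recombination helicase, a match on each strand overlaps the other. The windows are chr7:78847212-78847461 (minus strand) for Det1, chr5:22550339-22550588 (minus) for Orc5, chr2:132815891-132816140 (plus) for Mcm8 and chr7:11166149-11166398 (minus) for Zscan4d, all in GRCm38.p6.
Det1: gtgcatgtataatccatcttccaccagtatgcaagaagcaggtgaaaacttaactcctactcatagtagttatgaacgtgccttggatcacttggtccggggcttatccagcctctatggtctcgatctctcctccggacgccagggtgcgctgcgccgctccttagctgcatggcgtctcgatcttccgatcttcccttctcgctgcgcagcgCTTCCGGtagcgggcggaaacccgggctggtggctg
Orc5: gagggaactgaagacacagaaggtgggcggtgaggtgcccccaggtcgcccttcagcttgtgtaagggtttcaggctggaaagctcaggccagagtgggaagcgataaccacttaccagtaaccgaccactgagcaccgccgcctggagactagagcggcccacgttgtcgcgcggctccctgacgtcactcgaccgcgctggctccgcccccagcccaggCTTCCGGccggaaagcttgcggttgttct
Mcm8: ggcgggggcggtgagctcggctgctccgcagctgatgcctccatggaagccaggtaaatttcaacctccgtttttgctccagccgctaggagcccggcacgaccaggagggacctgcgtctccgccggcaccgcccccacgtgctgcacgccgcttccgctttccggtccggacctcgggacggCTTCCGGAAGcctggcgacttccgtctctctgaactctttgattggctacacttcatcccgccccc
Zscan4d: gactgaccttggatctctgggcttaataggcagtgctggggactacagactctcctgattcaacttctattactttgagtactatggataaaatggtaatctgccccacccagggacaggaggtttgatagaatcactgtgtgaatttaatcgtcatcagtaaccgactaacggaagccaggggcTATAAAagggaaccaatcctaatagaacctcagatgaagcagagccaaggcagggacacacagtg
The matches begin 36, 29, 66 and 65 bases before the start in that order. The Det1, Orc5 and Mcm8 windows hold 18, 19 and 24 CG pairs and the Zscan4d window 3.

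A larger share of the genes that lie head to head with another gene was lower. By the coordinates of the tables (GRCm39), 1537 tested genes had a tested neighbour on the opposite strand whose start lay 0 to 1000 bases away. Of these, 158 were lower by 1.5-fold or more (10.3%), against 595 of the 12369 other genes (4.81%), and 22 were higher (1.43% against 4.42%). The shares differed in the same direction in all but the most abundant class: 19.7% against 5.72% at 1 to 5 TPM, 16.2% against 7.88% at 5 to 20, 8.56% against 3.98% at 20 to 50 and 5.29% against 2.07% at 50 to 200, but 0.800% against 0.809% above 200. Of the 158 neighbours, 48 were lower, 37 higher and 73 did not pass, 10 fell by 1.5-fold or more, and their median difference was 0.00 against −0.85 for the fallen genes. These shares (30.4% lower, 23.4% higher) lay near those of the neighbours of all 1537 head-to-head genes, of which 29.2% were lower, 23.8% higher and 159 lower by 1.5-fold or more. The fallen member was the less abundant of the pair in wild type in 116 of 158 cases (73.4%), with a median of 14.7 TPM against 40.1. No test was run on these shares.

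Gemin6 starts 199 bases from Srsf7, a splicing factor gene, which read 374.0, 375.6 and 365.8 TPM in wild type and 423.8, 430.2 and 426.1 in the knockout, so the neighbour rose while Gemin6 fell to 28.5% of wild type. Zdhhc6, a palmitoyltransferase gene, fell from 47.4 ± 2.50 to 17.1 ± 0.44 TPM, while Vti1a, 21 bases away, rose from 6.44 to 9.73. Ccdc191 fell from 14.3 ± 0.62 to 2.11 ± 0.62 TPM beside Qtrt2, which rose from 59.8 to 65.2. In other pairs both members fell, though unequally: Rad51c fell to 3.55 ± 0.04 from 12.9 ± 0.75 TPM and Tex14, 59 bases away, to 10.7 ± 0.62 from 14.7 ± 0.47. Iars2 and Bpnt1, 4 bases apart, fell by 1.33 and 0.25 on the log2 scale.

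**Figure D3:**
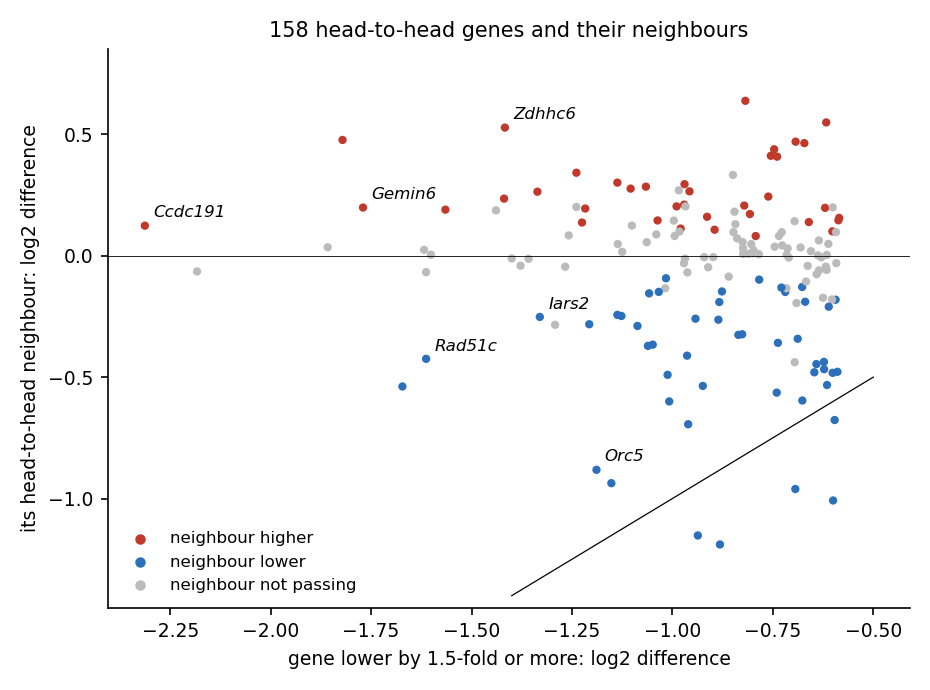
Each point is 1 of the 158 head-to-head genes lower by 1.5-fold or more, with its difference of log2(TPM + 1) on the x axis and that of its neighbour on the y axis; the diagonal marks equal differences. Most neighbours lie near 0, and 37 of the 158 were higher (red).

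Many genes of the mitochondrial gene expression machinery were lower in the knockout. Of 80 mitochondrial ribosomal protein genes 40 fell and 5 rose, with a median of −0.14, beside 20.7% and 26.4% over all genes tested and a median of 0.04. Mrpl11 of the large subunit fell from 45.5 ± 1.18 to 15.6 ± 1.18 TPM and Mrpl24 from 129.9 ± 5.17 to 63.0 ± 3.01, and Mrps14 of the small subunit from 45.2 ± 1.11 to 28.3 ± 1.18. Mrpl53 was among the few that rose, from 76.0 ± 6.48 to 92.5 ± 4.46 TPM. Of 20 genes for mitochondrial tRNA synthetases and the amidotransferase, 12 fell and 2 rose (median −0.37). Beside Gatb and Iars2 these included Ears2, for glutamate, at 15.2, 11.7 and 13.0 TPM in wild type against 3.68, 4.51 and 5.06, and Rars2, for arginine, at 51.2 ± 0.86 against 24.6 ± 1.14. Lars2, described above, was one of the 2 that rose. Of 24 genes for mitochondrial transcription, translation and genome upkeep 14 fell and none rose. Mtrf1, a release factor, fell from 15.4 ± 1.80 to 5.58 ± 0.73 TPM, alongside Tfb1m. The tables hold 37 entries of the mitochondrial genome, all at 0 in each library, so the RNAs that this machinery makes were not measured.

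Respiratory chain genes split by complex. For complex I, which takes electrons from NADH, 20 of 36 subunit genes and 6 of 15 assembly factors fell, with 7 and 1 higher. Ndufc1 fell from 128.3 ± 6.37 to 65.5 ± 5.87 TPM and the assembly factor Foxred1 from 53.6 ± 0.56 to 25.2 ± 0.53, whereas Ndufb6 rose from 157.9 ± 7.85 to 199.3 ± 16.5. For complexes II to V the counts were 14 lower and 9 higher of 39 and the median was −0.06. Sdhc of complex II fell from 200.9 ± 4.88 to 135.4 ± 2.35 TPM, and Cox6a1 of complex IV rose from 652.1 ± 6.03 to 783.1 ± 13.8. Of 15 genes for mitochondrial fatty acid and lipoate synthesis 8 fell and 1 rose. Mcat and Oxsm, which load and condense the growing chain, fell from 28.7 ± 3.44 to 8.01 ± 1.6 and from 4.91 ± 0.305 to 0.830 ± 0.164 TPM, beside Cbr4, which reduces it, and Lipt2, which attaches its product, fell from 13.5 ± 0.50 to 6.10 ± 1.11. Members of successive steps of this short pathway were thus below wild type in all 3 knockout libraries, though not of every step. The reductase Mecr did not pass, at 24.9 ± 0.66 TPM in the knockout against 22.5 ± 1.03 in wild type. Lipt1 did not pass either, at 8.4 ± 1.07 against 10.0 ± 1.18.

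Other housekeeping pathways held a few strong falls among many members that did not pass. Cobalamin handling had 5 of 11 genes lower and 2 higher, and a median of 0.08 that was −0.07 on the FPKM scale. N-glycan assembly had 10 of 29 lower, Alg8 among them, and 4 higher. The SMN complex and its partners had 6 of 18 lower and 2 higher, with Gemin4 at 65.6 ± 2.04 against 106.8 ± 3.48 TPM beside Gemin6. Cilium genes had 17 of 51 lower and 12 higher: Ift172, a transport subunit, fell from 19.4 ± 0.88 to 9.20 ± 0.28 TPM and Bbs2 of the BBSome from 14.5 ± 0.70 to 6.74 ± 0.37, while Wdr35 rose from 58.3 ± 1.38 to 85.7 ± 1.36. Peroxisome biogenesis had 6 of 15 lower and none higher, with Pex7, an import receptor, at 10.4 ± 0.97 against 18.8 ± 0.775 TPM. Lists of core machinery sat near the background or below it. Lower and higher counts were 9 and 9 of 36 for ribosome biogenesis, 7 and 5 of 30 for the spliceosome and 6 and 4 of 31 for the proteasome, with medians of −0.03, −0.03 and 0.01. Under median-of-ratios scaling the lower proteasome genes were 11 and the higher ones 0.

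**Figure D4:**
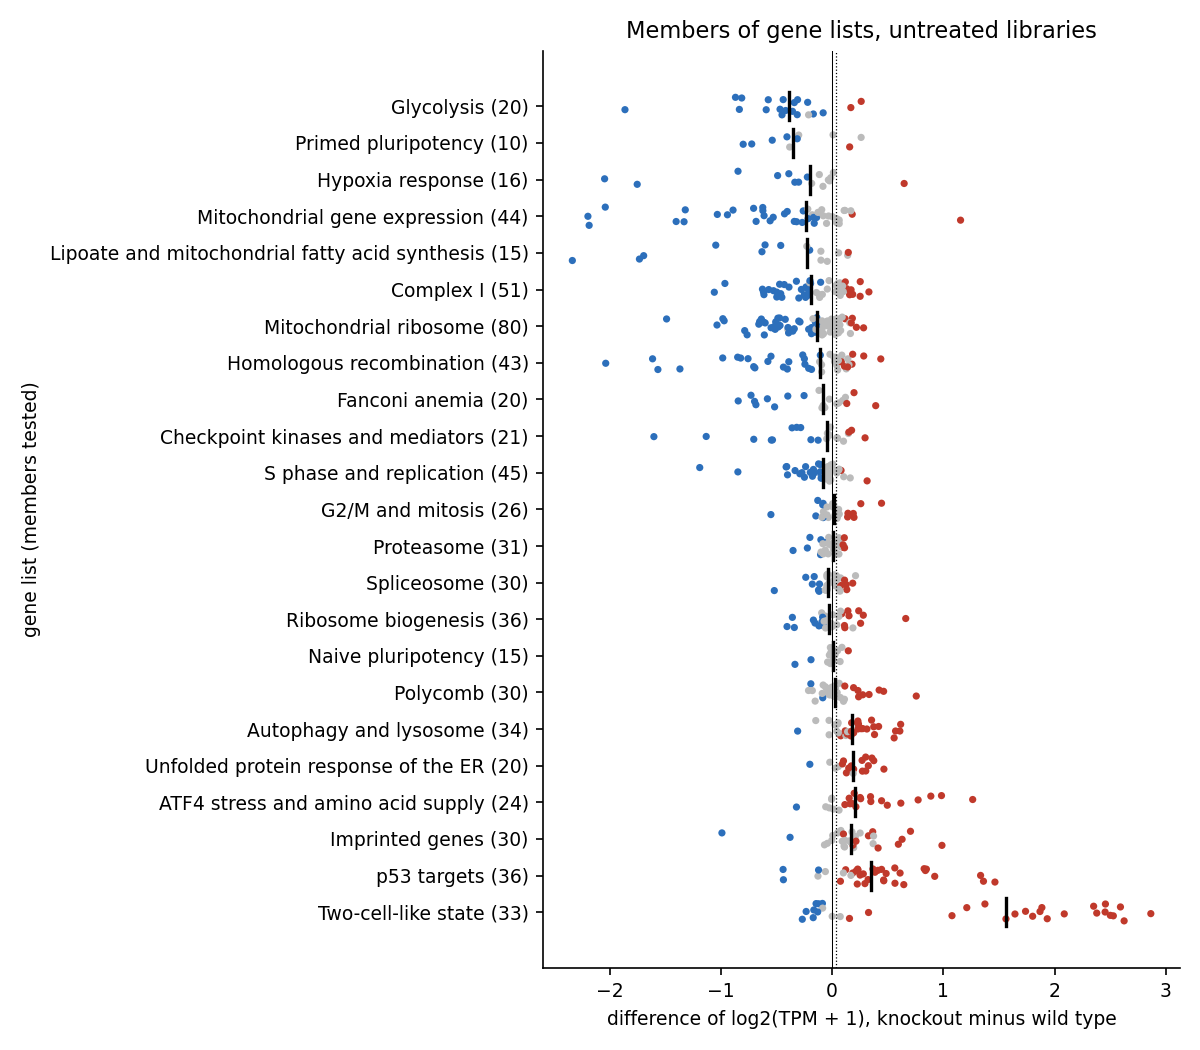
Each point is a member of a gene list, placed by its difference of log2(TPM + 1), red where higher, blue where lower and grey where the test was not passed; thick bars are list medians, and the dotted line is the median of all genes tested (0.04). Medians run from −0.39 for glycolysis to 1.56 for the genes of the 2-cell-like state, of which many multicopy members entered only through high knockout values, with proteasome and spliceosome genes near 0.

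In homologous recombination, which copies a sister chromatid to mend a break, 13 of 22 strand invasion genes fell and 3 rose (median −0.22), beside 3 and 1 of 9 for end resection and 5 and 3 of 12 for joint resolution. The low value in end resection was Rad50, the hinge of the MRN complex, at 33.3, 35.1 and 37.6 TPM in wild type and 8.21, 7.96 and 7.42 in the knockout. Among the strand invasion genes, Rad51c read 12.5, 13.8 and 12.6 TPM against 3.57, 3.59 and 3.51, and Rad51b 7.47, 8.79 and 7.94 against 1.92, 1.95 and 2.32. Their groups were far apart, whereas Xrcc2 of the same group rose by 0.18 and Rad51d and Xrcc3 did not pass at −0.11 and 0.09. Mcm8 fell from 25.6 ± 0.65 to 9.32 ± 0.38 TPM and the helicase gene Recql from 27.3 ± 0.61 to 13.3 ± 0.31. Of 6 checkpoint kinases and their partners only Atr and Wee1 fell, Atr from 23.2 ± 2.19 to 10.0 ± 0.44 TPM, while Atm did not pass at 0.05.

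The remaining repair pathways showed the same mixture. Of 20 Fanconi anemia genes, which unhook crosslinks, 8 fell and 3 rose (40% and 15%), with Fancd2 at 22.8 ± 0.34 against 41.6 ± 1.33 TPM. In the core of end joining 7 of 11 genes fell and 3 rose: Xrcc5, the larger Ku subunit, fell from 143.3 ± 4.57 to 74.6 ± 1.65 TPM, and the accessory factor Paxx rose from 1.29 ± 0.29 to 3.09 ± 0.905. Glycosylases of base excision repair had 6 of 11 lower and 1 higher, with Neil2 at 8.18, 11.5 and 8.70 TPM in wild type against 3.23, 3.43 and 3.48. Nucleotide excision repair was even, with 6 lower and 6 higher of 21, and its damage sensor Xpa fell from 8.66 ± 0.79 to 4.13 ± 0.88 TPM. These lists overlap the subject named in the title of the series, so they were not chosen apart from the study.

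Glycolysis was the list with the lowest median, −0.39, and 17 of its 20 genes fell while 2 rose. Ldha, lactate dehydrogenase, read 1014, 1020.0 and 1065 TPM in wild type and 570.5, 565.7 and 602.5 in the knockout. Tpi1, triosephosphate isomerase, read 391.3, 411.3 and 415.3 TPM against 223.7, 228.1 and 241.0, and the lactate exporter Slc16a3 23.2, 33.8 and 32.8 against 7.10, 7.68 and 7.44. The wild-type and knockout libraries did not overlap for any of these. Pgk1 fell from 637.4 ± 14.8 to 422.6 ± 12.3 TPM and Gapdh by less, from 456.4 ± 11.8 to 406.2 ± 12.4. The glucose transporters moved apart: Slc2a1 fell from 386.3 ± 31.3 to 301.2 ± 9.98 TPM, and Slc2a3 rose from 1074 ± 63.0 to 1287 ± 40.0. Of 16 genes in a hypoxia list, 8 fell and 1 rose. The list holds targets switched on by HIF1 at low oxygen, and also Hif1a and Arnt, which encode its subunits. Bnip3, a mitophagy receptor, read 17.2, 20.1 and 20.9 TPM against 5.48, 4.50 and 5.21. Hif1a itself did not pass, at 92.9 ± 1.03 and 91.5 ± 3.54 TPM. Whether oxygen or cell density differed between cultures was not given in the labels.

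Genes activated by p53, which halts or kills cells with damaged DNA, were higher in most roles. All 7 feedback genes rose (median 0.49), as did 8 of 9 arrest genes (0.45) and all 10 tested cell death genes (0.38), whereas among 10 metabolism and repair targets 4 rose and 3 fell. Mdm2, the ligase that degrades p53, read 114.6, 113.2 and 114.9 TPM in wild type and 214.7, 198.2 and 202.9 in the knockout. Trp53inp1 read 138.6, 141.2 and 141.4 TPM against 275.6, 255.3 and 270.8, and Perp, a death effector, 21.2, 22.1 and 23.3 against 64.4, 59.1 and 52.9. In all 3 the highest wild-type library lay far below the lowest knockout library. Ptprv, a phosphatase of arrest, rose from 17.9 ± 1.25 to 51.0 ± 1.45 TPM and Btg2 from 41.2 ± 0.95 to 75.0 ± 1.62. Cdkn1a, the p21 inhibitor, rose only from 146.0 ± 3.59 to 166.3 ± 8.41 TPM. Rrm2b, a subunit of the p53-induced ribonucleotide reductase, and Gls2, a glutaminase, fell, both by 0.44. Trp53 RNA did not pass, at 550.0 ± 18.9 and 547.7 ± 3.33 TPM. Apaf1, a caspase activator not among the p53 targets listed here, rose from 30.6 ± 2.76 to 47.7 ± 0.99 TPM. Among 19 BCL2 family and caspase genes outside that list, 7 were higher and 4 lower (36.8% and 21.1%, beside 26.4% and 20.7% over all genes).

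All 18 tested multicopy genes of the 2-cell-like state rose, out of 22 names listed. In 12 of them the wild-type mean was under 1 TPM, so they passed the filter on low values through the knockout libraries, and this count does not describe the whole families. Besides Tcstv2b and Zscan4d, Usp17lb rose from 0.44 ± 0.10 to 7.88 ± 1.06 TPM, Eif1ad7 from 1.48 ± 0.28 to 13.9 ± 1.28 and Eif4a3l1 from 1.18 ± 0.09 to 10.5 ± 1.97. In bulk samples, more or fewer cells of a type and more or less RNA per cell cannot be told apart. Of 15 tested regulators of the state 4 rose and 8 fell. Those that rose by over 1 on the log2 scale, Zfp352 and Tmem92, are themselves transcribed in it. Their wild-type means were 0.21 and 0.44 TPM, so both also passed the filter on low values through the knockout libraries. The falls were small, at most 0.27 on the log2 scale, the value of the known repressor Mga, whose call was lost without knockout replicate 1. KRAB zinc finger genes named Zfp900 to Zfp999, many of which silence retroelements, were near the background, with 13 higher and 11 lower of 61.

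Of 6 linker histone genes 3 rose and 1 fell: beside H1f2, the replacement histone H1f0 rose from 12.8 ± 0.58 to 22.0 ± 0.58 TPM. Of 8 tested core histone genes, whose RNAs mostly lack poly(A) tails and are poorly captured by the selection that the labels describe, 4 rose and none fell, with H2bc4 at 4.22, 4.90 and 4.18 TPM in wild type against 14.9, 18.5 and 11.0. Among the variants H2ax, which marks breaks when phosphorylated, rose from 575.5 ± 6.46 to 804.7 ± 47.5 TPM. Whether capture of tailless RNA differed between groups was not tested, for the core histone genes or for H1f2. Of 30 Polycomb genes 9 rose and 2 fell (6 fell under median-of-ratios scaling), with Phf1 at 25.6 ± 1.68 against 14.8 ± 1.41 TPM and Ezh2, the H3K27 methyltransferase, at 131.3 ± 4.26 against 150.0 ± 1.12.

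Stress and degradation lists moved mostly upward, by small amounts. In the ATF4 response, which restores amino acid supply, 8 of 9 transcription factor genes and 9 of 15 supply genes rose, and 1 of the latter fell. Ddit3, which encodes CHOP, read 8.74, 8.87 and 10.4 TPM in wild type and 19.4, 19.7 and 19.2 in the knockout, and Atf3 rose from 0.66 ± 0.18 to 3.02 ± 0.85. Asns, asparagine synthetase, rose from 756.7 ± 6.91 to 868.7 ± 6.61 TPM, a modest change well beyond its spread. Of 20 genes of the unfolded protein response 15 rose and 1 fell (median 0.19). Herpud1 rose from 12.6 ± 0.745 to 17.9 ± 1.15 TPM, Xbp1 fell from 68.7 ± 3.28 to 59.7 ± 3.29, and the chaperone Hspa5 did not pass, at 1091 ± 51.8 and 1113 ± 19.99. Of 34 autophagy and lysosome genes 23 rose and 1 fell (median 0.175). Ctsd, a lysosomal protease, read 327.3, 362.0 and 378.7 TPM against 533.9, 532.5 and 518.6, Hexa rose from 97.9 ± 6.38 to 150.5 ± 6.44, and Tfeb, a transcription factor of lysosomal genes, was the member that fell, from 53.4 ± 2.67 to 42.9 ± 1.77. Of 14 heat shock genes 2 rose and 5 fell.

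Few factors of the naive pluripotency network passed the test. Of 15 factors 1 rose and 2 fell, and Nanog stood at 776.6 ± 8.37 TPM in wild type and 768.5 ± 3.79 in the knockout, Klf4 at 157.3 ± 4.26 and 162.9 ± 2.74 and Esrrb at 412.9 ± 17.9 and 439.5 ± 23.04, none of which passed. Among 14 general pluripotency genes 7 fell and 2 rose. Utf1 read 156.3, 162.3 and 154.3 TPM against 95.7, 96.2 and 96.2, Lin28a, which blocks let-7 maturation, fell from 188.0 ± 5.98 to 128.8 ± 2.64, and Pou5f1, which encodes OCT4, fell slightly, from 1511 ± 23.1 to 1400.0 ± 45.6. Of 10 genes of the primed state, reached as cells prepare to differentiate, 5 fell and 1 rose (median −0.35). They included Zic2, at 9.76 ± 1.20 against 17.6 ± 0.36 TPM, Otx2, at 10.7 ± 0.26 against 14.6 ± 1.99, and the de novo DNA methyltransferase Dnmt3a, at 8.33 ± 0.34 against 14.4 ± 0.47.

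Nodal signalling differed at its inhibitors. The ligand Nodal read 113.1, 118.3 and 116.5 TPM in wild type and 156.4, 158.5 and 158.1 in the knockout, while its inhibitors Lefty1 and Lefty2 fell, Lefty2 from 129.7, 140.1 and 143.7 to 32.5, 29.4 and 31.9. Skil, a feedback repressor of SMAD proteins, fell from 15.5 ± 1.15 to 9.85 ± 0.94 TPM, and the shared effector Smad4 did not pass at 0.10 ± 0.04. Of 15 BMP pathway genes 6 rose and none fell (2 fell under median-of-ratios scaling). The target Id2 rose from 7.50 ± 0.57 to 10.4 ± 0.55 TPM and Id4 by 0.54. The more abundant targets Id1 and Id3 did not pass, at −0.02 and −0.09. In the FGF-ERK pathway 5 of 12 feedback targets rose and 1 fell: Phlda1 rose from 5.01 ± 0.45 to 10.4 ± 1.95 TPM and Dusp6 from 11.2 ± 0.37 to 16.9 ± 1.20, and Spry4 fell from 12.3 ± 0.71 to 8.74 ± 1.61. Of 20 WNT genes 8 rose and 3 fell (40% and 15%, the background being 26.4% and 20.7%).

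Markers of other lineages did not move one way. Of 13 extraembryonic endoderm and basement membrane genes tested 7 rose and 1 fell. The abundant ones encode basement membrane proteins, with Lama1 at 100.4 ± 4.95 against 65.4 ± 1.95 TPM and Col4a1 at 23.3 ± 0.62 against 14.7 ± 1.05, while the endoderm gene Dab2 was low, at 2.65 ± 0.22 against 1.16 ± 0.07, and Sox17, Afp and Ttr were below 0.1 TPM on average. Of 9 trophectoderm markers 5 fell and 2 rose. Tfap2c fell, at 32.4 ± 1.03 against 47.7 ± 1.87 TPM. The 2 that rose were Cdx2, at 3.25 ± 0.65 against 2.11 ± 0.22, and Krt8, at 29.5 ± 0.91 against 26.5 ± 0.70. None of 3 neuroectoderm markers passed. Vim, counted here as a feeder marker though stem cells express it too, fell from 434.4 ± 5.96 to 302.8 ± 5.88 TPM.

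Cell cycle genes differed by small amounts. Of 45 S phase genes 20 fell and 2 rose, but the median was −0.08 and, apart from Orc5 and Orc3, those that fell did so by at most 0.41, the value of Mcm10 and Rpa3. Orc3 fell from 46.5 ± 2.26 to 25.5 ± 2.10 TPM. Of 26 G2/M genes 6 rose and 6 fell (10 fell under median-of-ratios scaling): Ccnb2, a mitotic cyclin, fell from 156.8 ± 8.04 to 106.8 ± 3.97 TPM, and Hmmr rose from 125.7 ± 5.23 to 171.5 ± 6.83. Cell cycle phases were not measured.

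Imprinted and germline genes moved singly. Of 30 imprinted genes tested 10 rose and 2 fell (33.3% and 6.67%). Beside Peg10, Mest rose from 115.9 ± 4.90 to 179.8 ± 3.73 TPM among those expressed from the paternal copy and Igf2r from 36.0 ± 2.35 to 48.3 ± 2.32 among maternal ones, while Mcts2 fell, at 74.6, 71.0 and 79.9 TPM in wild type and a widely spread 24.5, 49.4 and 42.7 in the knockout. Of 21 germline and meiosis genes 7 rose and 6 fell (33.3% and 28.6%, not far from the background). Brme1, whose product binds that of Hsf2bp, fell from 3.13 ± 0.44 to 1.37 ± 0.24 TPM, Sycp3 of the synaptonemal complex fell from 17.9 ± 1.72 to 11.2 ± 1.79, and Rec8, a meiotic cohesin, rose from 16.1 ± 0.58 to 31.1 ± 1.66. Tsix, the antisense RNA of Xist, rose from 24.3 ± 1.85 to 41.5 ± 3.33 TPM.

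Tap1, a peptide transporter for MHC class I, read 1.65, 1.62 and 1.59 TPM in wild type and 6.56, 4.92 and 5.63 in the knockout, and B2m, its light chain, rose from 23.1 ± 0.79 to 37.5 ± 4.49, but the list of 7 had 3 higher and 2 lower. Of 19 interferon and DNA sensing genes 4 rose and 6 fell. Because tamoxifen acts on oestrogen receptors, a list of oestrogen receptor targets was looked at. Of the 6 tested, 5 fell (20.7% over all genes tested) and 1 rose. Igfbp4 was at 1.12 ± 0.16 TPM in the knockout against 2.37 ± 0.23, and Myb at 3.73 ± 0.31 against 6.21 ± 0.32. The receptor gene Esr1 averaged 0.06 TPM in both groups, below the filter, and was not tested. The listed targets Pgr, Greb1, Tff1, Cxcl12 and Pdzk1 were also below the filter. The call of the gene that rose, Nrip1, was lost when any single library was left out, and with all 6 libraries under no filter, FPKM, median-of-ratios scaling, quantile normalization and the replicate block. Their part in the other results was not tested.

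The etoposide libraries, none of which entered the comparison above, gave the same direction for most of the larger changes. In these, 2979 of the 13906 genes were higher in the knockout (21.4%) and 2961 lower (21.3%). Of the 753 genes lower by 1.5-fold or more without etoposide, 699 (92.8%) were also called lower with it and 1 was called higher. Of the 569 higher by as much, 426 (74.9%) were called higher again and 2 lower. Over all 2878 lower genes the share was 79.8%, and over all 3666 higher genes 62.7%. The knockout groups of both comparisons carry tamoxifen, so this repeat does not separate it from genotype.

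List by list, with etoposide 17 of 20 glycolysis genes, 44 of 80 mitochondrial ribosome genes and 26 of 43 homologous recombination genes were lower, and the 18 multicopy 2-cell genes all passed as higher. Lefty1 differed by −3.01 and Rad50 by −2.22 there, against −2.75 and −2.03 without the drug. For p53 targets 20 of 36 were higher with a median of 0.17, against 29 and 0.35 untreated: Plk2 differed by 0.47 in place of 1.33, and Mdm2 by 0.43 in place of 0.84.

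**Figure D5:**
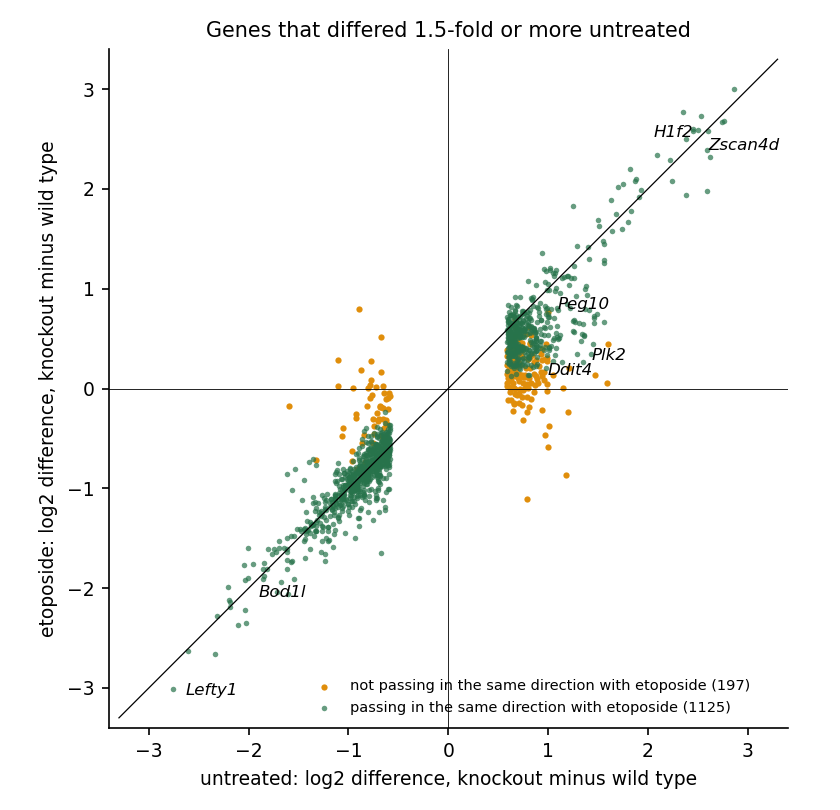
Each point is a gene that passed and differed by 1.5-fold or more between untreated groups (x axis), with its difference between the etoposide groups on the y axis, both knockout minus wild type on the log2(TPM + 1) scale; the diagonal marks equal differences. Of these genes 1125 passed in the same direction with etoposide (green) and 197 did not (orange); Plk2 and Ddit4 lie below the diagonal.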

How the data were processed

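RNA of mouse embryonic stem cells was selected for poly(A) tails, depleted of ribosomal RNA and made into strand-specific libraries, per the labels' protocols. Trim Galore 0.6.6, cutadapt 3.4, HISAT2 2.2.1 and StringTie 2.2.1 are named in the submitters' processing notes, and the coordinates are GRCm39. The deposited table of each library gives the authors' coverage, FPKM and TPM per gene. Read counts were not used here, so a count test was not run. Rows of 1 gene ID were summed. Aligned gigabases were derived from the ratio of the deposited coverage to the deposited FPKM, and this depth covers counting error only.

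TPM were tested as log2(TPM + 1) with limma 3.58.1 in R 4.3.3 (moderated test, abundance trend, two-sided), over the 6 untreated libraries and genes of mean TPM 1 or more, with Benjamini-Hochberg adjustment over all 13906 and a threshold of 0.05. The etoposide libraries were fitted separately on the same genes. On simulated data of 13906 genes, 50% of 50 genes planted at 0.25 on the log2 scale, 82% at 0.5 and 100% at 1 were recovered, with 8 false calls. Far fewer genes were planted there than the 47.1% called in the data. The shares recovered and the false calls therefore do not carry over to the real calls. Named were Bod1l, the 15 highest and 15 lowest genes that passed without overlap, the 8 highest and 8 lowest of mean TPM 50 or more, members of 58 lists, and neighbours of fallen genes; Malat1, Mir6236 and Lars2 were singled out for their spread after their values were seen. Some genes meeting this rule are left unreported. Lists and genes were chosen with earlier results of these data known. Alternatives were the pseudocount, the filter, FPKM, scaling, variance model, replicate block and leaving out each library. Python 3.11.15, numpy 2.4.6, pandas 2.3.3 and matplotlib 3.10.9 were used.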

Additional observations from a re-analysis of the deposited data

Results flagged for a closer look

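In 12 of 170 genes tested by name, and in 173 of all 13906, the knockout difference with etoposide was not the same as without it, by an interaction term in a limma fit of all 12 libraries (Benjamini-Hochberg adjusted over all genes). All 12 were higher in the untreated knockout, and the difference was smaller with etoposide. The difference of differences, etoposide minus untreated, was −0.86 ± 0.05 for Plk2 (adjusted p = 9.72e-06), −0.64 ± 0.04 for Btg2 (3.81e-05), −0.52 ± 0.05 for Trp53inp1 (0.00047) and −0.82 ± 0.09 for Perp (0.000582). It was −0.76 ± 0.08 for Ptprv (0.000643), −0.41 ± 0.05 for Mdm2 (0.00125) and −0.23 ± 0.05 for Cdkn1a (0.0448). These 7 are p53 targets of feedback, arrest and cell death. Cdkn1a differed by 0.19 without etoposide and by −0.05 with it. Outside that list, it was −1.08 ± 0.13 for Tap1 (0.0011), −0.51 ± 0.07 for Apaf1 (0.00428), −0.38 ± 0.04 for Wdr35 (0.00047), −0.50 ± 0.07 for Gaa (0.00298) and −0.57 ± 0.10 for Ddit4 (0.0202).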

How the results depend on the processing

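The counts of 3666 higher and 2878 lower genes stayed within 1.5 times under every alternative run, but the majority turned from higher (56.0% of calls) to lower with FPKM (47.9% higher) and median-of-ratios scaling (47.2%). The counts were 3451 and 2676 with no filter, 2770 and 3012 on the FPKM scale, 2993 and 3349 under median-of-ratios scaling, 3462 and 2956 under quantile normalization, and 2949 to 3192 and 2423 to 2623 when each library was left out in turn. Genes higher by 1.5-fold or more numbered 569, and 836 with a pseudocount of 0.1. They numbered 268 at a mean TPM of 5 or more and 236 with FPKM. Fewer genes are tested in both of these settings, 10628 and 11898 against 13906. The cause of the lower count with FPKM was not tested. Over the genes named, 2509 of 2524 values kept direction and side of the threshold, and none reversed. The calls of Mga and Nrip1 were each lost under at least 1 alternative. Same-numbered libraries correlated at 0.002, 0.062 and 0.009. With 3 libraries a group, these values cannot decide whether same-numbered libraries shared a batch. With the replicate block 3321 genes were higher and 2682 lower, 574 and 758 of them by 1.5-fold or more. Median SE was 0.136 below 5 TPM, which limits calls in rare RNAs, and tamoxifen cannot be told apart from genotype.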
